A study of Mus musculus with 24 samples.

Results

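The tissue kallikrein Klk1 cluster was examined through the 12 probe sets whose platform annotation names a single gene with the symbol Klk1 or a symbol starting with Klk1b, out of 12422 probe sets tested. They stand for 9 genes, of 8251 that a tested probe set names alone. Klk1, Klk1b5 and Klk1b8 each had 2 probe sets, and Klk1b1, Klk1b9, Klk1b11, Klk1b16, Klk1b21 and Klk1b22 had 1 each. RefSeq lists 14 protein-coding genes of the cluster on chromosome 7, and Klk1b3, Klk1b4, Klk1b24, Klk1b26 and Klk1b27 had no probe set naming them alone. A further 2 probe sets name several genes, at least 1 of them of the cluster, and were kept apart from the 12.

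Uterine RNA of progesterone receptor knockout (PRKO) mice and wild-type (WT) mice was measured on Affymetrix oligonucleotide arrays, with 3 arrays in each of 8 groups. All mice had been ovariectomized at 6 wk of age and were injected from 2 weeks later with progesterone (P4, 1 mg per mouse in sesame oil) or with the oil alone as vehicle. The groups were PRKO P4, PRKO vehicle, WT P4 and WT vehicle at 4 h, after a single injection, and the same 4 groups at 40 h, that is 4 h after the last of 4 injections given every 12 h. Each RNA sample pooled the uteri of 5 mice. Whether replicate arrays hold separate pools is not given in the labels, so p-values measure only the spread between these arrays, which may be technical.

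Tissue kallikreins are secreted serine proteases. Klk1, true tissue kallikrein, releases the vasoactive peptide kallidin or bradykinin from kininogen, and kinins act through the B1 and B2 receptors on vessel tone, permeability and smooth muscle. The Klk1b genes are tandem duplicates found in the mouse, best known from the submandibular gland, where several of their products bind or process growth factors. The duplicates resemble each other closely in sequence, which is why the probe sets themselves need examining before a signal is credited to a gene.

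Array medians of the deposited signal lay between 323.2 and 342.6, and no 2 arrays were identical. The Gapdh ratio of 3' to 5' probe sets, a measure of RNA or labelling quality, was 3.25 on WT P4 4 h replicate 2 and 3.67 on WT vehicle 4 h replicate 2, against 1.23 to 1.86 on the other 22 arrays. Pgr, the targeted gene, averaged 126 ± 4.48 units in PRKO vehicle and 144.7 ± 4.50 in WT vehicle uteri at 4 h (SD, n = 3 each). That probe set's place relative to the deleted stretch is not stated in the labels, so it does not check them. Signal is given after scaling each array to a common trimmed mean. Fold changes are on the scale of log2(signal + 32) from 1 limma fit to all 24 arrays, so they understate the change of dim probe sets. Passing means an adjusted p under 0.05, with Benjamini-Hochberg adjustment over all tested probe sets. In whole uterus, a change in the RNA of each cell and a change in the number of cells of a type cannot be told apart.

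Both probe sets annotated to Klk1 gave a higher signal in WT uteri 4 h after P4. Neither passed in PRKO uteri, and the difference between the genotypes in the P4 effect did not pass either. The probe set 100061_f_at gave 270.6, 359.8 and 269 signal units in WT P4 uteri at 4 h, against 137.3, 159 and 224.4 in WT vehicle uteri. The 3 P4 arrays all lay above the 3 vehicle arrays. The log2 fold change was 0.70 ± 0.16 (SE, n = 3 arrays each, limma adjusted p = 0.0422). This call was lost without WT P4 replicate 1 (limma adjusted p = 0.0981) or 2 (0.354), without WT vehicle replicate 1 (0.271) or 2 (0.136), and in a fit to the 4 h arrays alone (0.194).

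The second Klk1 probe set, 100060_i_at, was dim. It gave 43.5, 56.5 and 26.7 units in WT P4 uteri at 4 h, against 12.4, 18.9 and 14.3 in WT vehicle uteri, again with no overlap. Outside the WT P4 4 h group every value of this probe set lay under the offset of 32. Its mean signal stood at percentile 1.14 among all tested probe sets, and with no detection calls used here the vehicle arrays are not shown to lie above background. Its log2 fold change was 0.64 ± 0.11 (SE, limma adjusted p = 0.00339), and a ratio of signals is not given for it. It passed with any 1 of these 6 arrays left out, and missed in a fit to the 4 h arrays alone (limma adjusted p = 0.0715). Without both arrays of high Gapdh ratio its change was 0.55 (limma adjusted p = 0.0439), and that of 100061_f_at was 0.53 and no longer passed (limma adjusted p = 0.645).

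In PRKO uteri at 4 h, 100061_f_at gave 146, 149.3 and 206.5 units after P4, against 198.9, 172.4 and 151.9 after vehicle. The probe set 100060_i_at gave 9.19, 17 and 14 units after P4, against 16.5, 14.5 and 12.1 after vehicle. The groups overlapped on both probe sets, with log2 fold changes of -0.06 ± 0.16 for 100061_f_at and -0.03 ± 0.11 for 100060_i_at (SE, limma adjusted p = 1 for both). Set directly against WT P4 uteri at 4 h, PRKO P4 uteri were lower on both, by a log2 fold change of -0.74 ± 0.16 for 100061_f_at (limma adjusted p = 0.0213) and -0.69 ± 0.11 for 100060_i_at (limma adjusted p = 0.000682). Without both arrays of high Gapdh ratio the first of these did not pass (limma adjusted p = 0.17), nor did it without PRKO P4 replicate 1 (0.13) or 2 (0.0943), without WT P4 replicate 2 (0.18), or with the 4 h arrays alone (0.106). The difference between the genotypes in the P4 effect was -0.76 ± 0.23 for 100061_f_at and -0.67 ± 0.15 for 100060_i_at. Neither difference of effects passed (limma adjusted p = 0.504 for 100061_f_at and 0.115 for 100060_i_at).

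At 40 h the Klk1 groups overlapped. In WT uteri 100061_f_at gave 228, 196 and 177.8 units after P4, against 172.2, 235.3 and 199.6 after vehicle, and its log2 fold change of -0.01 had a 95% interval of -0.34 to 0.33. For 100060_i_at WT uteri at 40 h gave 23.6, 23.4 and 13.4 units after P4, against 17.9, 17.1 and 18.5 after vehicle, a change of 0.06 with an interval of -0.17 to 0.28. The P4 arrays lay within the span of the vehicle arrays on 100061_f_at and on both sides of it on 100060_i_at. In PRKO uteri at 40 h, 100061_f_at gave 133.4, 137 and 203.3 units after P4, against 177.8, 173.6 and 198.2 after vehicle. There 100060_i_at gave 17.8, 13.5 and 18.7 units after P4, against 17.1, 19.5 and 15.8 after vehicle. These groups overlapped too, and the changes were -0.20 ± 0.16 for 100061_f_at and -0.02 ± 0.11 for 100060_i_at (SE). The WT P4 effect at 40 h minus that at 4 h was -0.71 ± 0.23 for 100061_f_at and -0.58 ± 0.15 for 100060_i_at, and did not pass for either (limma adjusted p = 0.287 and 0.116 in that order). Ordered by mean signal of 100061_f_at, WT P4 uteri at 4 h stood first at 299.8 ± 51.9 units (SD, n = 3), and the means of the other groups lay between 157.9 and 202.4 units with ranges that overlapped from each neighbour to the next.

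**Figure D1:**
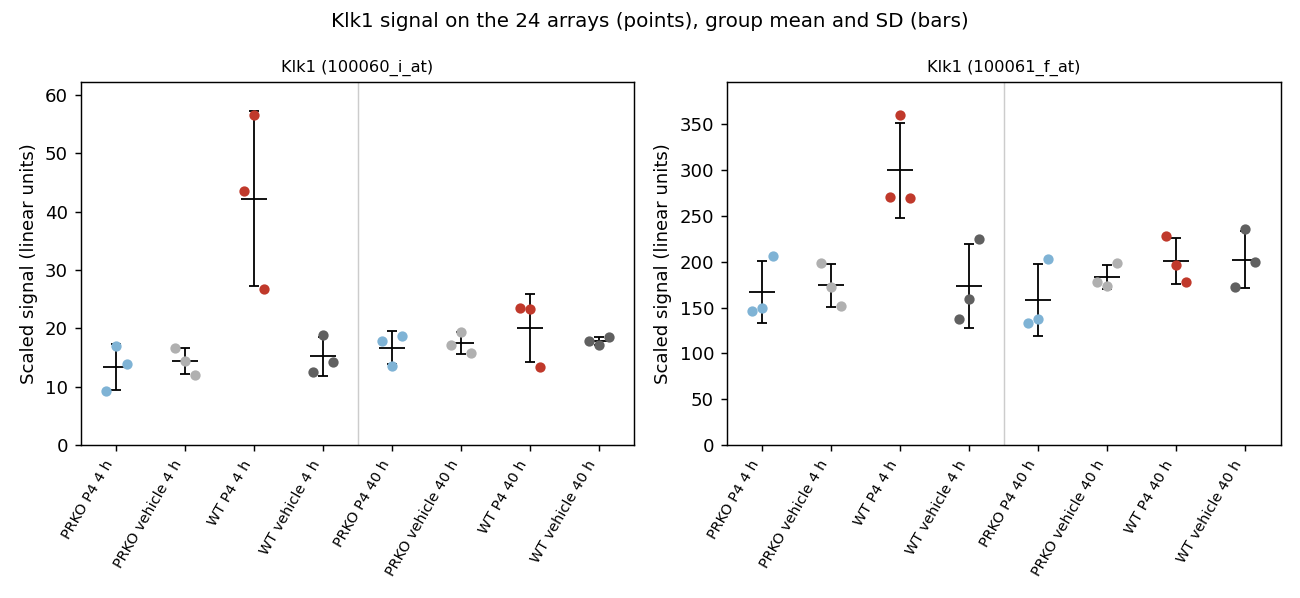
Scaled signal (linear units) of the Klk1 probe sets 100060_i_at and 100061_f_at on each of the 24 arrays, by group, with group means and SD as bars. The WT P4 4 h arrays, at 26.7 to 56.5 units for 100060_i_at and 269 to 359.8 units for 100061_f_at, lie above all arrays of the other groups.

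The sequence upstream of Klk1, the gene whose probe sets passed, is shown with those of Klk1b5 and Klk1b16. Klk1b5 on 104495_f_at and Klk1b16 had the highest Pearson's r of deviations from the group means, 0.90. The other Klk1b5 probe set, 161637_f_at, had 0.12 with Klk1b16. Each window runs from 250 bases before to 50 bases after the annotated start (RefSeq, build GRCm38.p6), and capitals mark TTTAAA, a variant TATA box described for tissue kallikrein genes.
Klk1, chr7:44225110-44225409, + strand: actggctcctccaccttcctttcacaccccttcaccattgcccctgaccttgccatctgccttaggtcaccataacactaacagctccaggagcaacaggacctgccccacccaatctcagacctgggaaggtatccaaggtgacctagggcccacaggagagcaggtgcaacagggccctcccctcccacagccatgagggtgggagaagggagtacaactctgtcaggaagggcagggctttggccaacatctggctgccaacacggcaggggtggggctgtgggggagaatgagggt
Klk1b5, chr7:44216224-44216523, + strand: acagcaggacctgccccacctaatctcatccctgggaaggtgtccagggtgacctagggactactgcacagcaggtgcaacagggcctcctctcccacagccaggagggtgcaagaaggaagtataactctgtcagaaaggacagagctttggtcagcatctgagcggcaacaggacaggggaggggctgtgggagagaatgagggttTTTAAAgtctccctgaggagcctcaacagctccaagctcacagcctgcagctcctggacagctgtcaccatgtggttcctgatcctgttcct
Klk1b16, chr7:44137040-44137339, + strand: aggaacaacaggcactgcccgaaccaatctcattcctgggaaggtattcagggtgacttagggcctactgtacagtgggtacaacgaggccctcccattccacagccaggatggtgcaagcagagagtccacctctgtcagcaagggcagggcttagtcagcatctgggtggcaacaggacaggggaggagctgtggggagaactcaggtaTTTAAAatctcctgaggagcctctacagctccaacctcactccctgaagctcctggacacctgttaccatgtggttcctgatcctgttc

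TTTAAA, which reads the same on both strands, was found in 8 of the 9 members' windows, against 13.2% of 32851 windows in the table. In 7 of them it lay 33 to 44 bases before the annotated start, and in that of Klk1b21 it lay 4 bases beyond it. The window of Klk1 holds none, and the run of 12 bases that ends it recurs in the window of Klk1b5, where TTTAAA follows 1 base later. Longer runs at its end, of 33 and 31 bases, recur in the windows of Klk1b9 and Klk1b22, where TTTAAA also follows 1 base later. The sequence beyond the window of Klk1 was not searched, so the absence holds for the window only. TATAAA, searched on both strands, was in 0 of 9 windows against 13.6% of all, and TGTTCT, a half-site of steroid receptors also searched on both strands, was in 0 of 9 against 19% of all. Over the 36 pairs of members' windows, identity ran from 76.9% to 91%, with a median of 83.6%. Klk1 shared 76.9% to 85.7% with the Klk1b windows, against 52.7% to 54% with those of Klk4, Klk6 and Klk8, kallikrein-related peptidases from the neighbouring part of the chromosome. Klk1b5 and Klk1b16 shared 83.7%, close to the median.

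Among the Klk1b probe sets none passed at 4 h in WT uteri, although 11 of the 12 cluster probe sets, Klk1 included, had a change above 0, against 50.6% of all. In all, 2 of the 12 cluster probe sets passed, both of Klk1, where 0.708% of all tested probe sets passed (0.523% higher). An unadjusted limma p under 0.05 was reached by 8 of 12, all higher in P4 uteri, against 3.73% of all probe sets on that side. The median log2 fold change of the 12 was 0.42, against 0.00 over all tested probe sets. All 3 P4 arrays lay above all 3 vehicle arrays for 6 of 12, both Klk1 probe sets among them, against 3.65% of all. Arrays of the same replicate number correlated between these groups at 0.114, 0.516 and 0.35 for replicates 1, 2 and 3. The highest value is that of the 2 arrays of high Gapdh ratio. With the replicate number as a block 4 of the 12 passed, Klk1b1 (limma adjusted p = 0.0371) and Klk1b21 (limma adjusted p = 0.0398) in addition to Klk1.

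Klk1b1 gave 578, 720 and 516.5 units in WT P4 uteri at 4 h, against 385.4, 421.3 and 474.2 in WT vehicle uteri. The groups did not overlap, and the log2 fold change was 0.46 ± 0.11 (SE, limma adjusted p = 0.0654). Klk1b21, known from Leydig cells of the testis, gave 341.3, 434.3 and 272.2 units in WT P4 uteri, against 215.5, 283.1 and 235.2 in WT vehicle uteri, with overlap at 1 array. Its log2 fold change was 0.45 ± 0.11 (SE, limma adjusted p = 0.0769).

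The probe sets of Klk1b5 differed from each other. With 104495_f_at, WT P4 uteri at 4 h gave 157.5, 237.9 and 111.7 units, against 63.8, 76.5 and 99.1 in WT vehicle uteri, without overlap. Its log2 fold change of 0.81 ± 0.20 was the highest of the 12 at this time and did not pass (limma adjusted p = 0.0703). With 161637_f_at the P4 arrays spanned 214.9 to 432.3 units and the vehicle arrays 189.5 to 325.9, an overlap, with a change of 0.32 ± 0.17 (SE, limma adjusted p = 0.866). Leaving out 1 array moved this change between 0.11, without WT P4 replicate 2, and 0.56, without WT P4 replicate 3, and it passed in none of the 6 fits.

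Klk1b16, whose product was described as gamma-renin, gave 150.3, 225.6 and 152.5 units in WT P4 uteri at 4 h, against 102.3, 105.2 and 139.4 in WT vehicle uteri. Klk1b22, an epidermal growth factor binding protein, gave 884.5, 1051 and 812.3 units in WT P4 uteri, against 603, 750.7 and 700.2 in WT vehicle uteri. Neither pair of groups overlapped, and neither change passed, at 0.49 ± 0.19 for Klk1b16 (limma adjusted p = 0.578) and 0.40 ± 0.14 for Klk1b22 (limma adjusted p = 0.459). Klk1b9, another epidermal growth factor binding protein, changed by -0.01 ± 0.09, and Klk1b11 by 0.17 ± 0.10. The probe sets of Klk1b8 changed by 0.11 ± 0.15 (104496_i_at) and 0.26 ± 0.11 (104497_f_at), and none of these 4 passed. WT P4 replicate 2, an array of high Gapdh ratio, was the highest of its group on 11 of the 12.

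**Figure D2:**
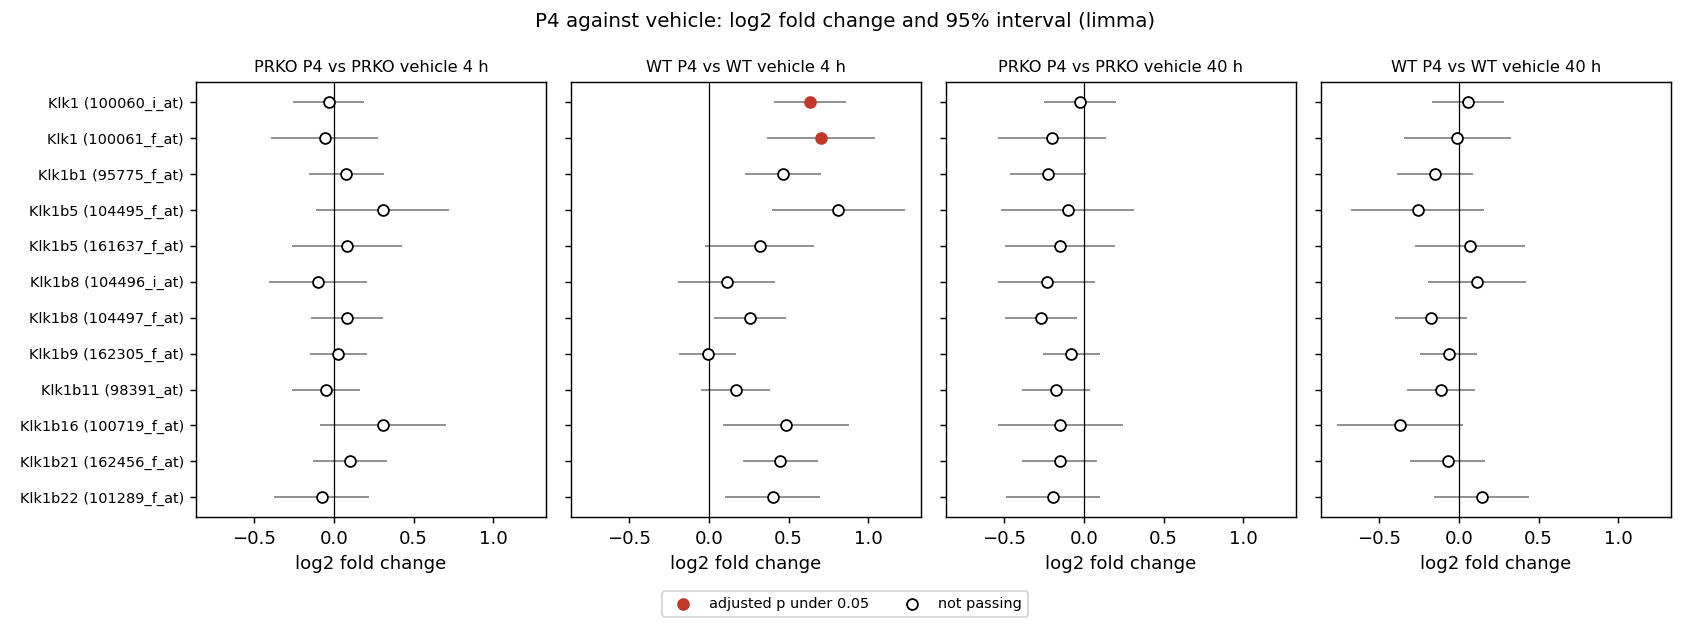
Log2 fold change (P4 over vehicle, on the log2(signal + 32) scale) of the 12 probe sets in each genotype at 4 h and 40 h, with 95% intervals from limma; filled points had an adjusted p under 0.05. The filled points are the Klk1 probe sets in WT uteri at 4 h, at 0.64 and 0.70.

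In PRKO uteri the 12 probe sets showed no change that passed. At 4 h, 0 of 12 passed, with 0% of all probe sets passing, and 0 of 12 had an unadjusted limma p under 0.05, against 1.9% of all. The log2 fold changes ran from -0.10 to 0.31 around a median of 0.05. At 40 h, 0 of 12 passed, again with 0% of all passing. All 12 lay below 0 there, where 63.4% of all did, from -0.27 to -0.02 with a median of -0.16, against a median of -0.04 over all tested probe sets. Of the 12, 1 had an unadjusted limma p under 0.05, Klk1b8 on 104497_f_at, against 4.79% of all on the lower side.

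The WT response at 40 h did not pass for any member. At that time 0 of 12 passed, where 1.54% of all probe sets did, and 0 of 12 had an unadjusted limma p under 0.05, against 11.7% of all. Changes ran from -0.37 (Klk1b16) to 0.14, with a median of -0.07 and a lowest limma adjusted p of 0.467. The WT effect at 40 h minus that at 4 h passed for 0 of 12 (0.475% of all), with 7 of 12 at an unadjusted limma p under 0.05, all lower at 40 h, against 3.44% of all on that side. Klk1b5 on 104495_f_at had the most negative difference, -1.07 ± 0.28 (SE, limma adjusted p = 0.116), and Klk1b1 had -0.61 (limma adjusted p = 0.113). These differences and the separate comparisons use the same vehicle arrays, and time cannot be told apart from any set of arrays handled at that time. A change of the vehicle arrays over time enters each difference. Klk1b8 on 104497_f_at had a difference of -0.43 ± 0.15, where its WT vehicle signal changed by 0.44 ± 0.11 from 4 h to 40 h (SE). The part of vehicle changes in these differences was not tested.

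Between genotypes after P4 at 4 h, 2 of 12 passed, both of Klk1 and both lower in PRKO uteri, where 1.22% of all probe sets passed (0.805% lower). All 12 lay below 0, where 46% of all did, with a median of -0.24, and 4 of 12 had every PRKO array under every WT array, against 5.06% of all. Besides Klk1 these were Klk1b1, at 501.6, 435.9 and 457.3 units in PRKO P4 uteri against 578, 720 and 516.5 in WT P4 uteri, and Klk1b21, at 270.9, 242.1 and 254.4 units against 341.3, 434.3 and 272.2. Klk1b1 changed by -0.35 (limma adjusted p = 0.21) and Klk1b21 by -0.38 (limma adjusted p = 0.127). The difference of the P4 effect between genotypes at 4 h passed for 0 of 12 (0.0966% of all), with 5 of 12 at an unadjusted limma p under 0.05, all lower in PRKO uteri, against 2.58% of all on that side.

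After P4 at 40 h, 0 of 12 passed between genotypes, where 2.59% of all did. All 12 again lay below 0, where 61.2% of all did, and 5 of 12 did not overlap, against 23.6% of all probe sets on the lower side. The lowest limma adjusted p was 0.16, for Klk1b8 on 104496_i_at with a change of -0.36. The genotype difference of the P4 effect at 40 h passed for 0 of 12 (0.105% of all), with a lowest limma adjusted p of 0.642.

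Without P4 the genotypes were not separated on any member. PRKO vehicle against WT vehicle uteri passed for 0 of 12 at 4 h (0.185% of all) and for 0 of 12 at 40 h (0.0644% of all), with 0 of 12 at an unadjusted limma p under 0.05 at either time, against 5.02% of all at 4 h and 3.08% at 40 h. Changes ran from -0.06 to 0.24 at 4 h and from -0.24 to 0.02 at 40 h. Changes of WT vehicle uteri at 40 h against those at 4 h ran from -0.21 to 0.44. Their median was 0.17, against 0.04 over all tested probe sets. They passed for 0 of 12 (0.29% of all). Klk1b8 on 104497_f_at came closest, at 82, 104.9 and 114.5 units at 40 h against 57.1, 74.2 and 64.7 at 4 h, a change of 0.44 ± 0.11 (SE, limma adjusted p = 0.0686).

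**Figure D3:**
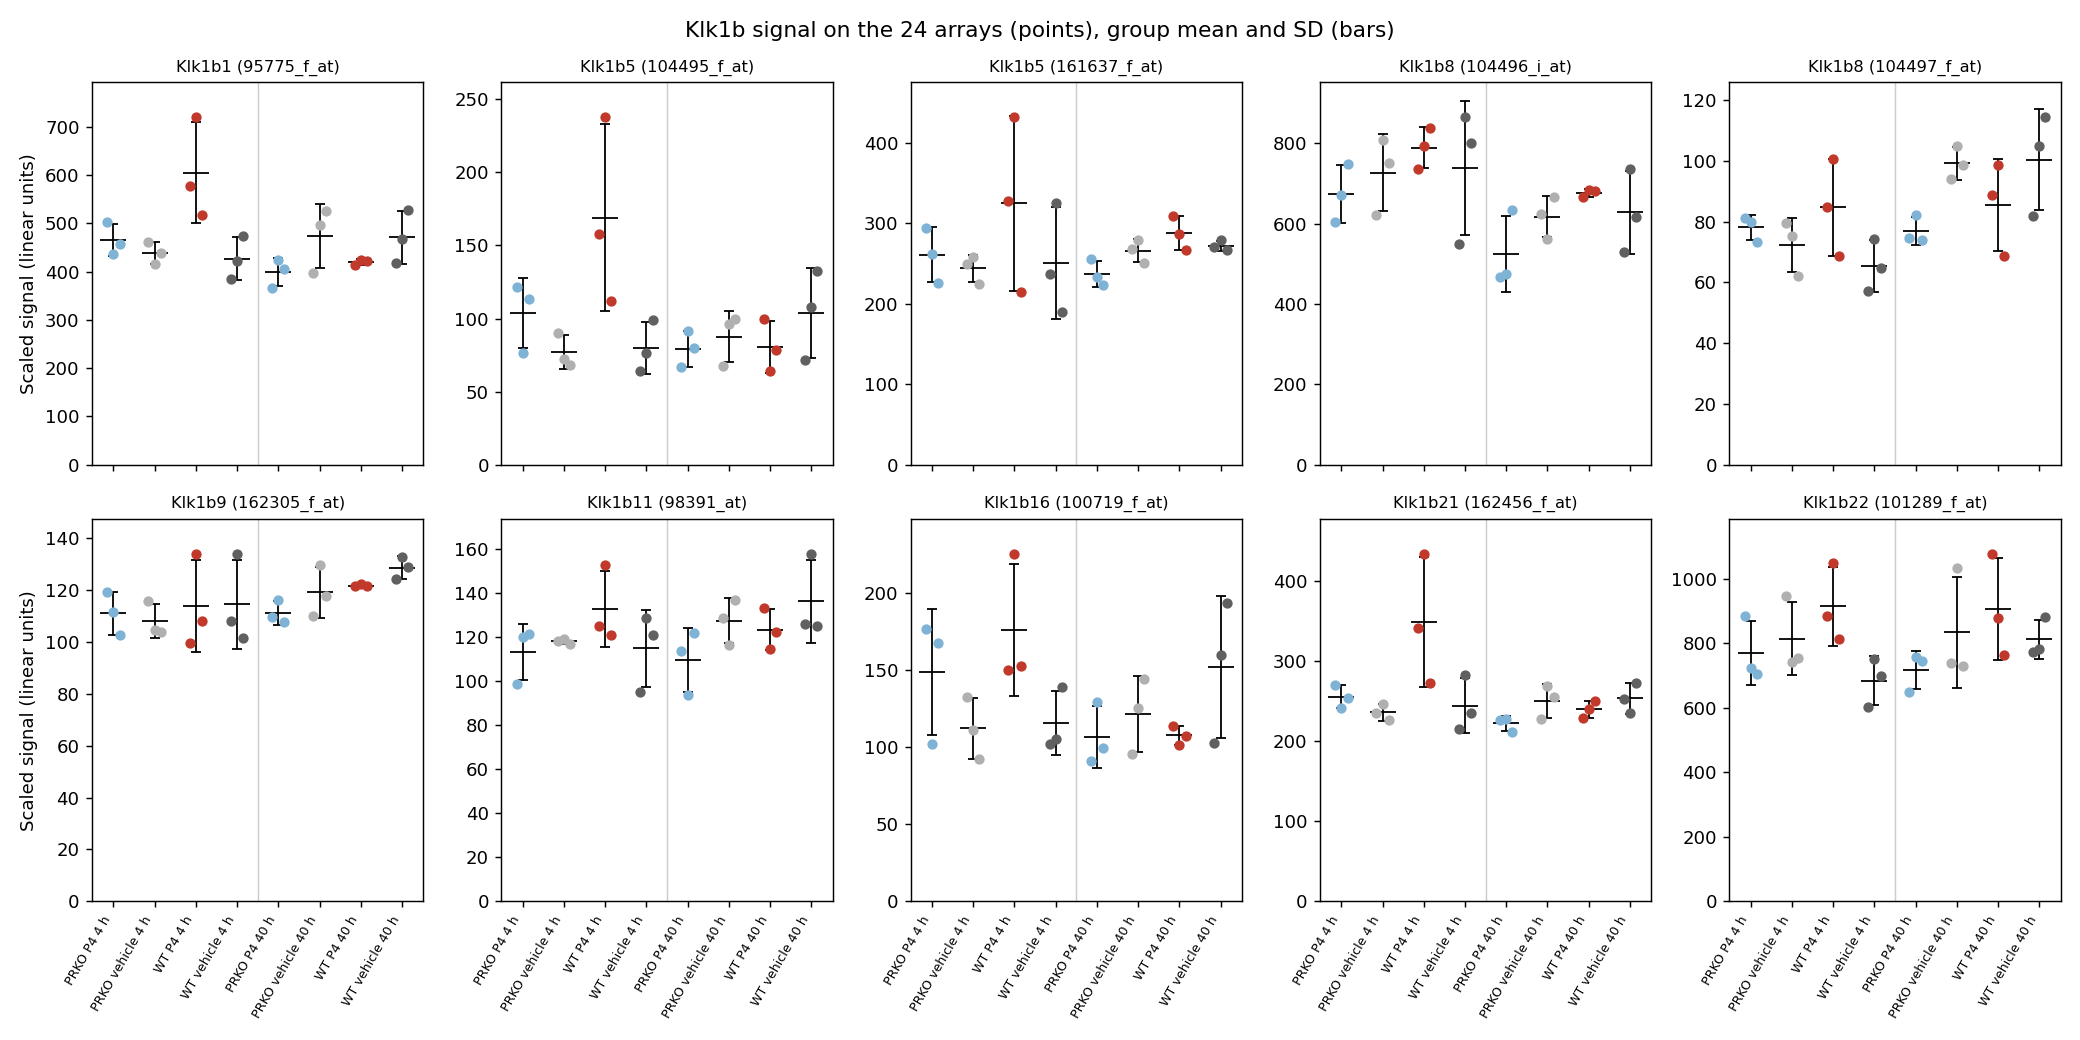
Scaled signal (linear units, each panel with its own axis from 0) of the 10 Klk1b probe sets on the 24 arrays, by group, with group means and SD as bars. Klk1b1 at 4 h lies between 516.5 and 720 units in WT P4 uteri, above the 385.4 to 474.2 units of WT vehicle uteri, while Klk1b9 overlaps between all neighbouring groups at 4 h.

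Cross-hybridization between the paralogs was examined through the probe set design and the signals, since probe and transcript sequences were not used here. In Affymetrix names the suffix _f marks probes shared within a sequence family and _i marks a set with fewer unique probes. The suffix _f was carried by 9 of the 12 cluster probe sets, against 8.65% of all tested probe sets, and _i by 2 of 12, against 2.06%. The remaining probe set, that of Klk1b11, carried neither, as 77.4% of all did. Of the 2 Klk1 probe sets 1 is an _f set and 1 an _i set, so no Klk1 measurement here is free of the marking.

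Signals were then compared as deviations from the group means over the 24 arrays, which share scaling and array quality. Over 3 pairs of probe sets for the same gene, Pearson's r was 0.41 for Klk1, 0.36 for Klk1b5 and 0.14 for Klk1b8. Over 63 pairs for different genes the median r was 0.48, and the range was -0.11 to 0.90. All 3 same-gene values lay inside the range of the different-gene values, and below their median. The median was 0.57 over the 35 different-gene pairs in which both carried _f, and 0.24 over the other 28. Each of those 28 includes the _i set of Klk1, the _i set of Klk1b8 or the probe set of Klk1b11. The _i set of Klk1, 100060_i_at, is dim, with a mean signal at percentile 1.14. The same-gene values of Klk1 and Klk1b8 also rest on an _i set. The part of family probes in this difference was not tested, and no baseline from pairs outside the cluster is given. The highest values were 0.90 for Klk1b5 (104495_f_at) with Klk1b16, 0.88 for Klk1b1 with Klk1b5 (104495_f_at) and 0.83 for Klk1b1 with Klk1b16.

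Leaving out both arrays of high Gapdh ratio, the median was 0.13 over the same-gene pairs and 0.30 over the different-gene pairs. It was 0.40 where both carried _f and 0.0021 over the other 28 pairs. The 3 highest pairs stood at 0.89, 0.84 and 0.80 in the order given. With all arrays kept, the probe set annotated to several genes 102693_f_at had r of 0.95 with both Klk1b5 (104495_f_at) and Klk1b16. These r were not computed without both arrays of high Gapdh ratio. In WT uteri at 4 h its P4 change was 0.63 ± 0.21 (SE, limma adjusted p = 0.394). The other such probe set, 100681_f_at, changed by 0.34 ± 0.10 (SE, limma adjusted p = 0.18). Which transcript each signal comes from was not tested, for Klk1 as for the Klk1b genes. The Klk1 and Klk1b values are therefore signals of probe sets annotated to those genes.

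**Figure D4:**
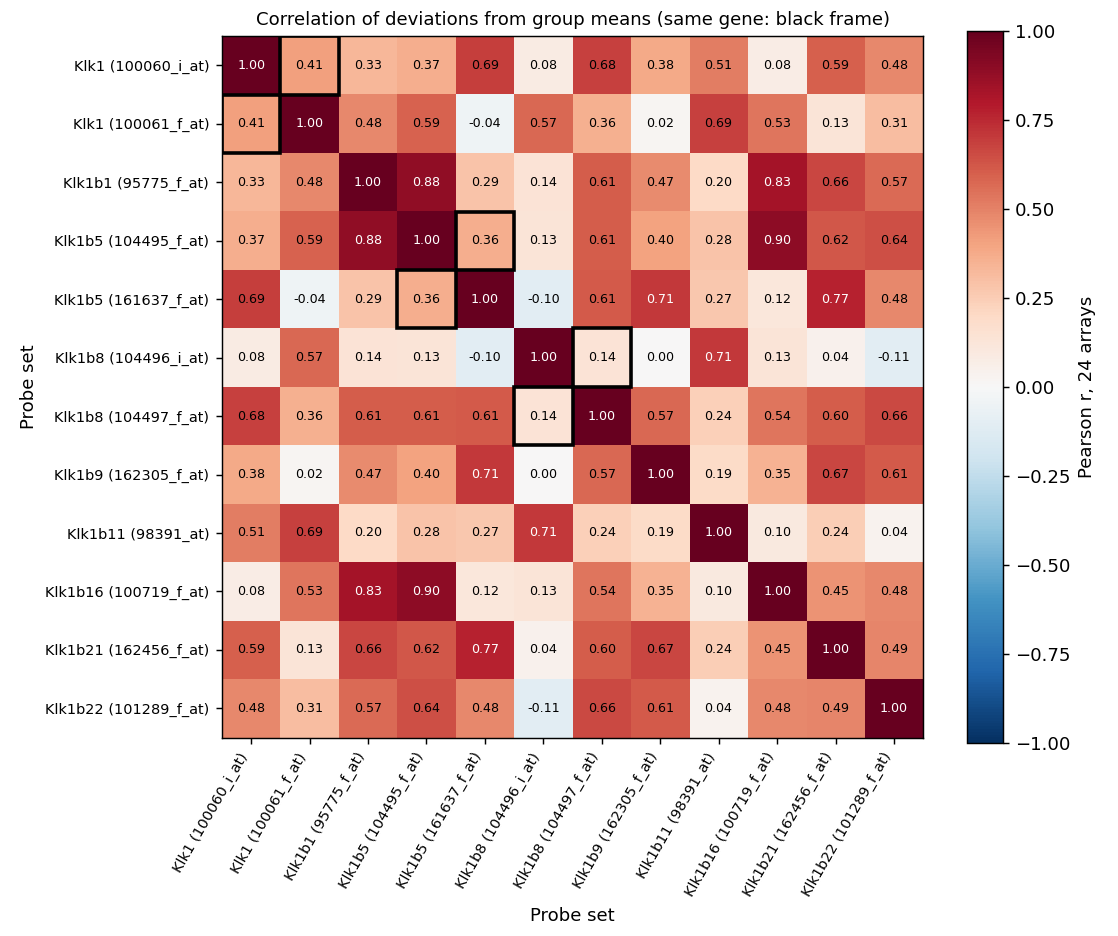
Pearson's r of deviations from group means (log2 scale, 24 arrays) between each pair of the 12 probe sets, with pairs of 1 gene framed in black. The framed values are 0.41, 0.36 and 0.14, while Klk1b5 (104495_f_at), Klk1b1 and Klk1b16 reach 0.83 to 0.90 with each other.

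Outside the cluster, the probe sets most like Klk1 (100061_f_at) over the 24 arrays, by Pearson's r of log2 values among 10821 candidates, were those of Ihh (0.88), Prg2 (0.83), Trappc5 (0.83), Acot1 (0.81), Hbegf (0.79), Cited2 (0.79), Cyp26a1 (0.78), Gnmt (0.78), Caprin2 (0.77) and Ggct (0.77). The arrays share groups, scaling and quality. Ihh encodes Indian hedgehog, a secreted signal of the uterine epithelium. Within groups its r with Klk1 was 0.80, close to that of Prg2 (0.79), and the others ran from 0.70 for Trappc5 and 0.65 for Hbegf down to 0.21 for Caprin2. None of the r with genes outside the cluster was computed without both arrays of high Gapdh ratio.

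Possible partners of the cluster showed no change that passed in WT uteri at 4 h, where 0.708% of all tested probe sets passed. Of all, 1.54% passed in WT uteri at 40 h and 2.59% between genotypes after P4 at 40 h. Of the kinin pathway and growth factor substrates, 12 of 18 genes were measured by 18 probe sets, and 0 passed in WT uteri at 4 h. At 40 h 1 rose, Mme, the kinin-degrading protease neprilysin, at 486.8 ± 168 units in WT P4 uteri against 214.2 ± 57.9 in WT vehicle uteri (SD, n = 3 each), a change of 1.06 ± 0.23 (SE, limma adjusted p = 0.0202). That call was lost without WT P4 replicate 1 (limma adjusted p = 0.14) and without WT vehicle replicate 2 (0.0681) or 3 (0.133). After P4 at 40 h Mme was also the 1 gene of the list that was lower in PRKO uteri, at 224.1 ± 10.6 units against 486.8 ± 168 in WT uteri, a change of -0.97 ± 0.23 (SE, limma adjusted p = 0.0299) that was kept in 1 of 6 fits without 1 array. Of 12 other kallikrein-related peptidases, 3 were measured (Klk4, Klk6 and Klk8), by 4 probe sets, and 0 passed in WT uteri at either time. After P4 at 40 h Klk6 averaged 106.8 ± 3.19 units in PRKO uteri and 136.2 ± 4.72 in WT uteri (SD, n = 3 each), a change of -0.28 ± 0.07 (SE, limma adjusted p = 0.0417) that no fit with 1 of these arrays left out kept.

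Serine protease inhibitors were measured for 16 of 28 genes by 22 probe sets, and 0 passed in WT uteri at 4 h (0.708% of all). At 40 h the shares of all passing were 1.54% in WT uteri and 2.59% between genotypes after P4. At 40 h 1 rose, Spink1, a secreted trypsin inhibitor, at 421.9 ± 174 units in WT P4 uteri against 90.7 ± 9.53 in WT vehicle uteri (SD, n = 3 each), a change of 1.81 ± 0.17 (SE, limma adjusted p = 5.94e-06). After P4 at 40 h 3 were lower in PRKO than in WT uteri, Spink1 (-1.94), Serpina1e (-0.77, limma adjusted p = 0.00584) and Serpina1c (-0.63, limma adjusted p = 0.0177), whose call was lost in 4 of 6 fits without 1 array. A second Serpina1c probe set did not pass (-0.24, limma adjusted p = 0.0772). Serpina1c and Serpina1e are close copies of each other, and the Serpina1e probe set carries the suffix _f, so both are uncertain as to gene.

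Markers of several cell types also moved at 40 h. Of all tested probe sets, 1.54% passed there in WT uteri and 2.59% between genotypes after P4. In WT uteri at 40 h, 5 of 6 adipocyte probe sets fell after P4, with a median change of -1.30, and their summed level was 3629 to 7390 units in WT P4 uteri against 10838 to 12680 in WT vehicle uteri. Of 11 stromal probe sets 2 rose, and the summed level of the stromal genes was 23818 to 26970 units in WT P4 uteri against 17385 to 23009 in WT vehicle uteri. After P4 at 40 h, 4 of 6 adipocyte probe sets were higher in PRKO than in WT uteri, with a summed level of 9680 to 11227 units in PRKO uteri against 3629 to 7390 in WT uteri. Of the stromal probe sets 0 were higher and 1 was lower in PRKO uteri. Of 5 smooth muscle probe sets 0 passed in WT uteri at 40 h, with 4 at an unadjusted limma p under 0.05 (11.7% of all). The summed level of these genes was 24158 to 25941 units in WT P4 uteri against 21029 to 22231 in WT vehicle uteri. After P4, 1 was lower in PRKO uteri. Of 16 uterine epithelium probe sets 2 fell after P4 in WT uteri at 40 h. Between genotypes after P4, 2 of these were higher and 2 lower in PRKO uteri. Macrophage and endothelial probe sets had 0 passing in WT uteri at 40 h, and between genotypes 1 macrophage probe set was lower in PRKO uteri. No adipocyte or stromal gene measured was at 0. The part of any of these cell types in the Mme, Spink1, Klk6 and Serpina1 results was not tested.

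Markers of cells in which kallikreins are known were followed beside the Klk1 change. Of 13 uterine epithelium genes, measured by 16 probe sets, 0 rose and 1 fell in WT uteri at 4 h (Tspan8, -0.95, limma adjusted p = 0.0044). Of all tested probe sets, 0.708% passed there. An unadjusted limma p under 0.05 was reached by 7 of 16, in directions that were not counted. Of all probe sets, 3.73% reached it on the higher side alone. The median change of the 16 was -0.13, but the list moved both ways. Cldn3 changed by 0.39 and 0.41 on its probe sets and Spint1 by 0.35. Krt8 changed by -0.43, and Krt19 by -0.41 and -0.18 on its probe sets. None of these changes passed. Their summed level was 9409 to 11442 units in WT P4 uteri against 10284 to 12246 in WT vehicle uteri. Of 5 submandibular gland genes 3 were measured (Egf, Smr2 and Smr3a), with sums of 241.9 to 256.2 units in WT P4 uteri against 233.4 to 363.9 in WT vehicle uteri, and none was at 0. Of 8 exocrine pancreas genes 5 were measured, with sums of 2265 to 2440 units in WT P4 uteri against 2060 to 2700 in WT vehicle uteri. The ranges overlapped for all 3 lists at 4 h, and the part of these cells in the Klk1 change was not tested.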

How the data were processed

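The authors deposited 1 table of signal intensity, linear and not below 0, for 24 arrays, made with MAS5 per the submitters' processing notes. Its version and settings, and detection calls, were not used here. The table holds 12488 probe sets, of which 66 controls were left out of the tests. Dim probe sets were kept. Arrays were scaled so that the mean, trimmed by 2% at each end, was 500, with factors of 0.954 to 1.03. The values tested are log2(signal + 32). Group means of all 24 arrays were fitted with limma 3.58.1 in R 4.3.3 (intensity trend, 16 residual and 4.98 prior degrees of freedom), for 12 comparisons with two-sided tests. P values were adjusted by Benjamini-Hochberg over 12422 probe sets. The cluster probe sets are named by the platform annotation. Other genes carry the RefSeq symbol where the annotated gene ID matched, and the platform symbol otherwise. Promoter windows were aligned with Biopython 1.88.

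All probe sets that fit the rule are described, those of Klk1 or passing with every value. The 10 likest genes were taken by correlation with the brightest Klk1 probe set. The members, lists and tests were chosen with earlier results of these data known. Arrays of the same replicate number correlated at 0.114, 0.516 and 0.35 in the WT comparison at 4 h, where all pairs were over 0.1, and in no other comparison of 3 arrays with 3. The labels state no pairing. In 10 sets of simulated data with 200 changed probe sets of 12422, for the WT comparison at 4 h, the fit recovered 73% of changes of 0.5 and 97.1% of changes of 1 (log2), with 4.96% false calls. These shares are not for the cluster, whose 12 probe sets had a median SE of 0.128 there, against 0.102 over all tested. Alternatives tried were an offset of 8, no rescaling, quantile normalization, no intensity trend, a mean signal of at least 200, arrays of 1 time only, the replicate block, each array left out, and both arrays of high Gapdh ratio left out.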

Additional observations from a re-analysis of the deposited data

How the results depend on the processing

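The 12 counts of cluster probe sets passing were within 1.5 times of those given under an offset of 8, no rescaling, quantile normalization and no intensity trend. Quantile normalization ended 1 call, that of Klk6 in PRKO P4 against WT P4 uteri at 40 h (-0.19, limma adjusted p = 0.0894). In WT uteri at 4 h the count of 2 became 0 with a mean signal of at least 200, which leaves 5 of the 12 and neither Klk1 probe set, 0 with the 4 h arrays alone, which leaves fewer arrays for the spread, 4 with the replicate block and 1 without both arrays of high Gapdh ratio. Leaving out 1 array gave 1 to 5. With the 4 h arrays alone the limma adjusted p was 0.0715 for Klk1 on 100060_i_at and 0.194 on 100061_f_at. The probe set 100060_i_at passed in all 6 fits without 1 array (changes of 0.50 to 0.80, limma adjusted p of 5.07e-05 to 0.0318). The probe set 100061_f_at did not pass without WT P4 replicate 1 (limma adjusted p = 0.0981) or 2 (0.354), or WT vehicle replicate 1 (0.271) or 2 (0.136). Without WT P4 replicate 3, 5 passed, Klk1b1 (0.0197), Klk1b5 on 104495_f_at (0.012) and Klk1b21 (0.00346) in addition. For PRKO P4 against WT P4 uteri at 4 h the count of 2 became 0 under the same minimum signal, 1 with the 4 h arrays alone, 1 without both arrays of high Gapdh ratio, and 1 to 3 without 1 array. Klk1 on 100061_f_at lost this call without PRKO P4 replicate 1 (limma adjusted p = 0.13) or 2 (0.0943) or WT P4 replicate 2 (0.18). For the same comparison at 40 h the count of 0 became 1 with the 40 h arrays alone. For WT vehicle uteri at 40 h against 4 h it became 1 without both arrays of high Gapdh ratio, and was 0 to 1 without 1 array. The genotype difference of the P4 effect at 4 h gave 0 to 1 without 1 array, and the time difference of the WT effect 0 to 4. The replicate block changed no other count, and it was not run for WT vehicle uteri at 40 h against 4 h, where blocks lie within times. The WT change at 4 h turned sign for Klk1b9 without rescaling (0.0040, against -0.01) and over the fits without 1 array (-0.10 to 0.086), and for Klk1b8 on 104496_i_at over those fits (-0.077 to 0.24). Klk1b21 passed at 4 h without rescaling (0.46, limma adjusted p = 0.0399). Causes of these shifts were not tested where the text names none. The dim signal of Klk1 on 100060_i_at limits its log2 fold change, which was 1.08 with an offset of 8 and 0.64 with 32.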
